A study of Homo sapiens with 2 samples.

Results

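Ribosome biogenesis builds the small and large ribosomal subunits in the nucleolus, and 46 genes of this process were examined in hepatoma cells with and without M2BPGi. They were chosen by gene symbol as factors of nucleolar RNA processing, proteins of small nucleolar ribonucleoprotein particles (snoRNPs) and the RNA polymerase I machinery. All 46 were among the 16424 genes in the deposited values. M2BPGi is a glycan isomer of Mac-2-binding protein, a secreted glycoprotein. The study asked which signals M2BPGi regulates in hepatocellular carcinoma cells. PLC/PRF/5, an established human hepatoma cell line, was either left non-treated (0 µg/ml) or treated with 3 µg/ml M2BPGi, and both cultures were collected after 6 h. Gene expression was measured by Cap Analysis of Gene Expression (CAGE), which counts short reads of the capped ends of RNAs, called tags, so that a transcript is counted at its start whatever its length. There was 1 library per group, so the differences below have no replicate check and no p-values are given.

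RNA polymerase I transcribes the ribosomal DNA repeats into a long precursor RNA. Box C/D snoRNPs guide methylation of this precursor and box H/ACA snoRNPs guide pseudouridylation, while assembly factors fold and cut it into the RNAs of both subunits. Growing tumour cells need many ribosomes, and the genes of this pathway are known as targets of the transcription factor MYC.

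Values are CPM, the tags of a gene scaled to the size of the library. Library totals were fitted from the steps of the CPM values, as the totals under which the values are whole tags. The fitted totals were 24040209 tags for the non-treated library and 24862941 for the M2BPGi-treated library. Of these, 22630317 and 23471991 were on the listed genes. The tag numbers of each gene were read back with these totals. The 46 genes had between 71 and 39050 tags each per library. The log2 ratio compares M2BPGi-treated with non-treated cells after adding 1 CPM to both values, which understates the change of low genes. A gene needed an average of 1 CPM or more over both libraries. This filter left 13724 genes, and all 46 genes passed it. Each gene also has a 95% Clopper-Pearson interval, computed on its tags with nothing added. These intervals cover counting error only and compare the libraries, not the conditions. CPM are shares of a library, and in bulk samples fewer cells of a type and less RNA per cell cannot be told apart.

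The cell line was checked against marker genes. All 14 hepatocyte and hepatoma markers were above 0. They summed to 4741 CPM in the non-treated library and 4408 CPM in the treated one, and KRT18 was the most abundant. AFP was at 695 and 566 CPM. ALB, the albumin gene, was low, at 8.82 and 7.04 CPM. These markers did not share a direction, as 6 were higher and 8 lower in the treated library. FGB (log2 ratio -0.61), TF (-0.60) and SERPINA1 (-0.56) were lower, and FOXA2 (0.49), KRT18 (0.35) and HNF4A (0.16) were higher. Of 7 stellate cell and fibroblast markers, 2 were listed, with a sum of 5.20 and 4.18 CPM, mostly COL3A1. Of 7 Kupffer cell and macrophage markers, 2 were listed, CSF1R at 0 and LYZ at 32.1 and 29.2 CPM. PTPRC was the 1 lymphocyte marker listed, at 0, and 0 of 5 endothelial markers were listed. The part of these levels in the results below was not tested.

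As a group, the 46 genes lay slightly higher in M2BPGi-treated cells, and few of them differed by much. Their summed level was 5605 CPM in non-treated and 5976 CPM in treated cells. The median log2 ratio was 0.08, with quartiles of -0.09 and 0.19, while the median over all 13724 genes was -0.05, with quartiles of -0.26 and 0.14. In all, 28 genes were higher and 18 lower, and 42.9% of all genes were higher. A threshold was set at 25% higher or, as the same fold downwards, 20% lower. Past it, 3 genes (6.52%) were higher, namely RRN3, NOP16 and FBL, and 1 (2.17%) was lower, DDX10. FBL was just past it, and with 5 CPM added to both values it was not. Over all genes, 9.04% were higher and 18.4% lower past this threshold, so the share of higher genes was near the background and the share of lower genes was below it. At 1.5-fold or more, RRN3 was higher and 0 genes were lower, against 1.6% and 4.04% of all genes. The counting interval lay above 0 for 20 genes (43.5%) and below 0 for 7 (15.2%), against 22.8% and 31.5% of all genes. Among all genes with a mean of at least 10 CPM, which all 46 have, these shares were 28.9% and 34.8%. The libraries were also rescaled by the median log2 ratio of all genes, before 1 CPM was added. The ratios of the 46 genes moved by about 0.05, and the median over all genes became -0.005. After this, 32 of the 46 genes were higher, as were 49.4% of all genes. The 4 that turned were GAR1, NCL, PES1 and NOP14, all with ratios close to 0. The same rescaling moved the share of higher genes among all genes past the threshold of 25% from 32.9% to 46.1%, and it brought BOP1 and NOB1 past that threshold, which made 5 of the 46 genes, beside 12.3% of all genes, so here too the share was near the background. With the intervals moved by the same shift, 24 (52.2%) lay above 0 and 3 (6.52%) below, against 27.7% and 26.0% of all genes. Among genes with a mean of at least 10 CPM these shares were 35.3% and 28.6%. The intervals of TCOF1, NOP58, BYSL and NOP2 then included 0, and those of NCL, NOLC1, RRP12 and TSR1 lay above it.

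**Figure D1:**
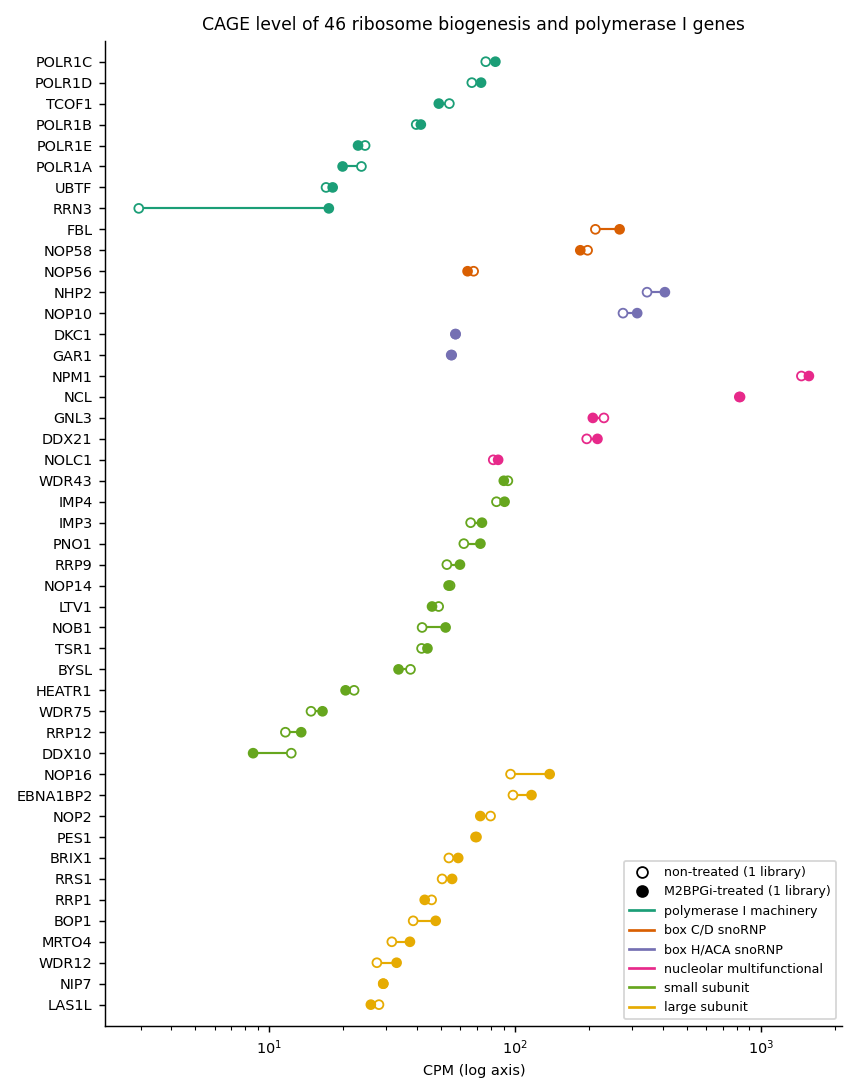
CPM of each of the 46 genes on a log axis, in 1 non-treated library (open circles) and 1 M2BPGi-treated library (filled circles), with genes grouped and coloured by role. The circles lie close together for most genes, and the widest gap is that of RRN3, from 2.95 to 17.5 CPM.

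The polymerase I machinery had 8 genes, 5 of them higher, with a median log2 ratio of 0.07. RRN3, the initiation factor that brings polymerase I to the ribosomal DNA promoter, was at 2.95 CPM (71 tags) in non-treated and 17.5 CPM (435 tags) in treated cells. Its log2 ratio was 2.23, and the interval without the added 1 CPM ran from 2.20 to 2.95, so this gene stood far from the other 45. RRN3 has 3 near-identical copies in GENCODE v29, RRN3P1, RRN3P2 and AC009093.9, the closest with 98.6% identity over the first 500 nt. None of these 3 copies was listed in the deposited values, and tags of RRN3 and its copies may have been assigned to either. In all, 9 of the 46 genes have at least 1 near-identical copy. Besides RRN3 these are NPM1, NHP2, NOB1, EBNA1BP2, NOP56, DKC1, DDX10 and NIP7. Whether copies had a part in the differences of these genes was not tested.

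The stretch upstream of both RefSeq starts of RRN3, without GENCODE exons, is printed because RRN3 had the highest ratio of the 46 genes. It is on GRCh38.p14, in lower case throughout, and it holds none of the motifs searched. Outside the stretch there is 1 ETS site, at base 27 from the start next to the stretch and at base -37 from the other.
RRN3, chr16:15094336-15094410, minus strand: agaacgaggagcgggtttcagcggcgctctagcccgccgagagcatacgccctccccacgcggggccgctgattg

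The subunits of polymerase I did not share the difference of RRN3. POLR1A, which encodes the largest subunit with part of the catalytic centre, was the lowest of the machinery, at 23.8 and 19.9 CPM (log2 ratio -0.24, interval -0.43 to -0.08). Its catalytic partner POLR1B was at 39.7 and 41.4 CPM (0.06), with an interval that included 0. POLR1C and POLR1D encode subunits that polymerase I shares with polymerase III. POLR1C, the most abundant of the machinery, was at 76.1 and 83.3 CPM (0.13), and POLR1D was at 66.8 and 72.8 CPM (0.12). The intervals of both lay above 0. UBTF, the upstream binding factor of the ribosomal DNA promoter, was at 17.1 and 18.1 CPM, with an interval from -0.11 to 0.29, so no difference was detectable at this depth. TCOF1, the nucleolar protein treacle, was at 54.1 and 49.03 CPM (-0.14, interval -0.26 to -0.03).

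In the box C/D snoRNP, the proteins of the same particle differed in their ratios. FBL, fibrillarin, the methyltransferase of the particle, was at 213 CPM in non-treated and 267 CPM in treated cells (log2 ratio 0.33, interval 0.27 to 0.38). Of the other core proteins, NOP58 was at 198 and 185 CPM (-0.10, interval -0.16 to -0.04, and -0.05 with an interval that included 0 after rescaling), and NOP56 was at 67.9 and 64.2 CPM (-0.08), with an interval that included 0, while SNU13, given with the assembly genes below, was higher (0.42). The median of FBL, NOP58 and NOP56 was -0.08, and -0.03 after rescaling.

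The stretch upstream of FBL is printed because FBL passed the threshold of 25% and its window has an exon-free run of at least 30 bases before the start, which that of NOP16 has not. Capitals mark CCGGAAG (ETS) and GGGCGG (SP/KLF).
FBL, chr19:39846415-39846629, minus strand: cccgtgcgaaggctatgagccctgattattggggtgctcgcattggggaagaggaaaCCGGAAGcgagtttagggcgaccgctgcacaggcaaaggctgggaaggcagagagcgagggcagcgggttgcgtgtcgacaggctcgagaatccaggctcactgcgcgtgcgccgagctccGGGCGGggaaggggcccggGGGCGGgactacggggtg

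The box H/ACA snoRNP had 4 core proteins in the list and a median of 0.10. NHP2, which contacts the guide RNA, was the highest and the most abundant, at 345 and 408 CPM (0.24, interval 0.20 to 0.28). NOP10, the smallest protein of the particle, was at 275 and 314 CPM (0.19, interval 0.14 to 0.24). DKC1, dyskerin, the pseudouridine synthase itself, was at 57.3 and 57.4 CPM (0.00). GAR1 was at 55.3 and 55.1 CPM (-0.01, and 0.04 after rescaling). The intervals of NHP2 and NOP10 did not overlap with those of DKC1 and GAR1, so within this particle the ratios differed by more than counting error. NHP2 and NOP10 lie above 100 CPM, where the median over all genes was 0.10. DKC1 and GAR1 lie between 30 and 100 CPM, where it was -0.02. The part of abundance in this split was not tested.

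The 5 multifunctional nucleolar proteins were the most abundant group and summed to 2796 CPM without and 2899 CPM with M2BPGi. NPM1, nucleophosmin, a histone and ribosome chaperone, had the highest level of all 46 genes, at 1464 and 1571 CPM (0.10, interval 0.08 to 0.12). It has 24 near-identical copies, mostly processed pseudogenes, and the most abundant of those listed, NPM1P27, was at 20.3 and 22.8 CPM. NCL, nucleolin, was at 824 and 818 CPM (-0.01), and its narrow interval, from -0.04 to 0.02, included 0. DDX21, an RNA helicase, was the highest of the group by ratio, at 196 and 217 CPM (0.14, interval 0.09 to 0.20). GNL3, nucleostemin, a GTPase, was the lowest, at 230.2 and 208 CPM (-0.15, interval -0.20 to -0.09).

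The 14 small subunit factors had a median of 0.09, with 8 higher and 6 lower. NOB1, the endonuclease that makes the final cut in the RNA of the small subunit, was the highest, at 41.9 and 52.3 CPM (0.31, interval 0.20 to 0.44). PNO1, the partner of NOB1 in the late precursor, was also higher, at 62.0 and 72.4 CPM (0.22, interval 0.12 to 0.32). LTV1 and TSR1, other factors of the late cytoplasmic precursor, had intervals that included 0. WDR43 was the most abundant small subunit factor by the mean of both libraries, at 93.6 and 90.1 CPM (-0.05, interval -0.14 to 0.03). BYSL, bystin, was at 37.6 and 33.6 CPM (-0.16, interval -0.30 to -0.02). DDX10, an RNA helicase, was the lowest of all 46 genes, at 12.3 and 8.61 CPM, or 296 and 214 tags (-0.47, interval -0.78 to -0.26). Its near-identical copy DDX10P2 was listed at 0 in both libraries.

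The stretch upstream of DDX10 is printed as that of the lowest gene. It holds none of the motifs searched, while the rest of the window, closer to the start, has an SP/KLF motif at base -34 and an NRF1 motif at base -16.
DDX10, chr11:108664819-108665024, plus strand: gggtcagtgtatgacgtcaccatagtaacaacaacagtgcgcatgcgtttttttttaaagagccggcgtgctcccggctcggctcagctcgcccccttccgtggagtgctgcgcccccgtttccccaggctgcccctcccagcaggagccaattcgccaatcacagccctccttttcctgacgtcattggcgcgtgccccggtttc

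The 12 large subunit factors had the highest median of the 6 roles, 0.13, with 8 higher and 4 lower. NOP16, a nucleolar protein of the large subunit precursor, was the highest and, by the mean of both libraries, the most abundant, at 96.0 and 139 CPM (0.52, interval 0.45 to 0.61). BOP1, PES1 and WDR12 form 1 complex, which is needed to mature the RNA of the large subunit. BOP1 was at 38.6 and 47.6 CPM (0.30, interval 0.18 to 0.43), and WDR12 was at 27.5 and 33.0 CPM (0.26, interval 0.12 to 0.42). PES1 was at 69.8 and 69.1 CPM (-0.01), and its interval, from -0.11 to 0.08, did not overlap with those of its partners. EBNA1BP2 was at 98.2 and 117 CPM (0.25), and MRTO4 was at 31.6 and 37.4 CPM (0.24), with intervals above 0 for both. NOP2, an RNA methyltransferase, was the lowest, at 79.6 and 72.3 CPM (-0.14, interval -0.23 to -0.05).

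**Figure D2:**
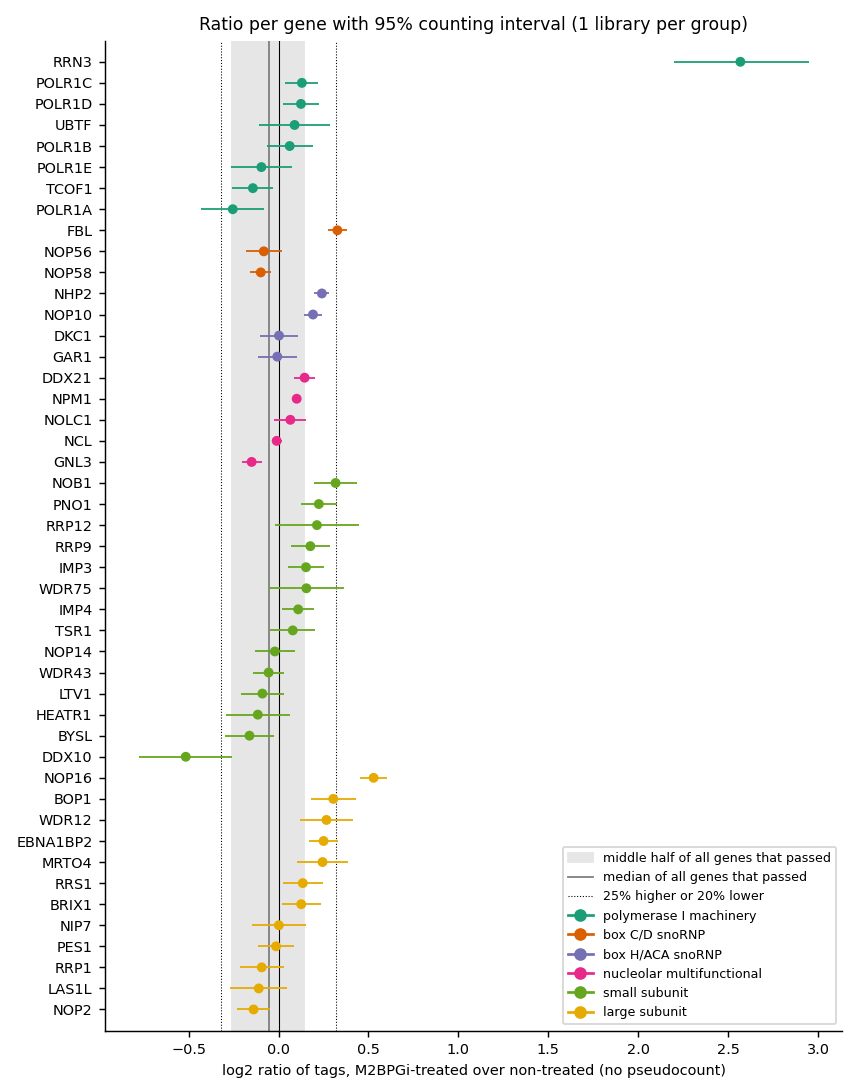
Log2 ratio of tags per gene without the added 1 CPM (points), with the 95% counting interval (bars), for 1 library per group. The grey band spans the quartiles of all genes (1 CPM added), the grey line their median of -0.05, and the dotted lines mark 25% higher and 20% lower. RRN3 lies apart on the right, DDX10 lies lowest, and the genes of each role spread to both sides of 0.

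Some members share their place with other transcripts. NOP16 starts head to head with HIGD2A, and the annotated ends of the pair overlap on opposite strands. HIGD2A was at 137 and 174 CPM (0.35), so both genes of this pair were higher in treated cells. CCDC115, head to head with IMP4, was at 31.5 and 42.5 CPM (0.42), while IMP4 itself was at 84.2 and 90.8 CPM (0.11). POLR1A and its head-to-head neighbour PTCD3, at 128 and 112 CPM (-0.19), were both lower. NBEAL1, the neighbour of WDR12, was at 29.4 and 22.6 CPM (-0.37), so pairs did not always share a direction. These pairs were chosen after their values were seen.

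Several members are hosts of small nucleolar RNA genes, which lie in their introns and guide the modification of ribosomal RNA. The 8 members with such a gene inside had a median of -0.03, and 3 of 8 (37.5%) were higher. The 38 members without had a median of 0.12, and 25 of them (65.8%) were higher. All genes had a median of -0.05, and 42.9% were higher. After rescaling these medians were 0.02, 0.17 and -0.005. Then 4 of the 8 and 28 of the 38 were higher, beside 49.4% of all genes. The hosts include NOP56, NOP58, NCL, GNL3 and DKC1. SNORD56 and SNORD57, both inside NOP56, had the same values, 9.28 and 8.65 CPM, so tags of overlapping features may be shared in these values. MIR1292, a microRNA gene that overlaps NOP56 on the same strand, was at 58.3 and 55.3 CPM, beside 67.9 and 64.2 CPM for NOP56. Inside NCL, at 824 and 818 CPM, SNORD82 was at 47.3 and 49.8 CPM. How much of a host's value is shared was not tested.

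The other genes of the pathway were described from 7 lists, all of whose genes passed the filter. Beside them, all genes had a median of -0.05, with 9.04% higher and 18.4% lower past the threshold. The 14 other polymerase I genes had a median of -0.02, which became 0.03 after rescaling, with 2 higher (14.3%) and 3 lower (21.4%) past the threshold of 25% up or 20% down. The share of lower genes was near that of all genes. Those 3 were subunits of the selectivity factor that places polymerase I at its promoter. TAF1D was at 86.2 and 60.6 CPM (-0.50, interval -0.60 to -0.41), TAF1C at 14.6 and 10.3 CPM (-0.47) and TAF1A at 10.5 and 7.52 CPM (-0.43). TAF1B (-0.19) and TBP (-0.17), also in this list, did not pass the threshold. POLR1H, a small subunit of polymerase I, was at 20.6 and 29.4 CPM (0.50, interval 0.35 to 0.68). POLR2L, a subunit shared by all nuclear RNA polymerases, was at 728 and 913 CPM (0.32).

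The 38 other small subunit factors had a median of 0.02, with 5 higher (13.2%) and 0 lower past the threshold, against 9.04% and 18.4% of all genes. RRP7A was at 53.4 and 70.5 CPM (0.39), and EMG1, a methyltransferase, at 113 and 142 CPM (0.32). UTP20 was the lowest with at least 10 CPM, at 45.4 and 37.1 CPM (-0.28), next to NOP9 at 15.6 and 12.6 CPM (-0.28). The 44 other large subunit factors had a median of 0.03, with 4 higher (9.09%) and 3 lower (6.82%) past it. NLE1 was at 10.8 and 21.5 CPM (0.93, interval 0.78 to 1.22), and SENP3, a SUMO protease, at 34.1 and 46.6 CPM (0.44). MDN1, the giant ATPase that acts on NLE1 in the precursor, was in the other direction, at 14.8 and 10.2 CPM (-0.50), as was URB1 at 72.7 and 49.4 CPM (-0.55).

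The 11 snoRNP assembly genes had a median of 0.06, with 3 higher (27.3%) and 0 lower past the threshold, against 9.04% and 18.4% of all genes. ZNHIT6 was at 14.0 and 19.99 CPM (0.49), and SNU13, a core protein of box C/D particles, at 100.5 and 135 CPM (0.42). SHQ1 was at 13.6 and 13.5 CPM (0.00), and ZNHIT3 at 32.3 and 30.6 CPM (-0.07). The 24 genes of ribosomal RNA trimming had a median of 0.07, with 1 higher (4.17%) and 0 lower past it. In the exosome, EXOSC8 was at 24.8 and 31.4 CPM (0.33) and EXOSC5 at 13.4 and 16.4 CPM (0.28). Its nuclease EXOSC10 was at 73.0 and 64.9 CPM (-0.17), and its helicase MTREX at 60.9 and 53.9 CPM (-0.17).

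The 21 polymerase III genes had a median of 0.06, with 4 higher (19.0%) and 2 lower (9.52%) past the threshold, against 9.04% and 18.4% of all genes. POLR3F was at 7.74 and 13.9 CPM (0.77), and GTF3C3 at 23.1 and 31.5 CPM (0.43). POLR3A, the largest subunit, was at 17.7 and 11.8 CPM (-0.54), and GTF3C1 at 82.2 and 57.4 CPM (-0.51). The 9 genes of the MYC network had a median of 0.00, with 0 higher and 2 lower (22.2%) past it, so the share of lower genes was near that of all genes. MYC itself was at 31.4 and 32.4 CPM (0.04). MAX, its partner, was at 43.5 and 53.1 CPM (0.28), and MLX at 39.3 and 48.3 CPM (0.29). The repressors MXD1, at 18.8 and 14.0 CPM (-0.40), and MGA, at 17.4 and 12.1 CPM (-0.49), were the 2 lower ones. MNT (-0.32) and MXD3 (-0.26), also in this list, were lower but did not pass the threshold. MXD4 (0.00) and MXI1 (0.04) were near 0, so the list did not share a direction.

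The cytosolic ribosomal protein genes, whose products are assembled by these factors, lay higher than the 46 genes. Their 79 genes had a median of 0.30, and 75 of them (94.9%) were higher, 38 (48.1%) by at least 25%, against a median of -0.05, 42.9% and 9.04% for all genes. They are abundant, with a median level of 552 CPM, against 20.9 CPM for all genes. All genes at 100 CPM or more had a median of 0.10, and 62.6% of them were higher. The part of abundance in this difference was not tested. The 131 other genes of ribosome biogenesis, without polymerase III and the MYC network, had a median of 0.04. By the median alone, the 46 genes, with 0.08, lay between the other biogenesis genes and the ribosomal protein genes. Their quartiles, -0.09 and 0.19, were close to those of the other biogenesis genes, -0.07 and 0.19. At least 25% higher were 6.52% of the 46 genes and 11.5% of the other biogenesis genes.

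**Figure D3:**
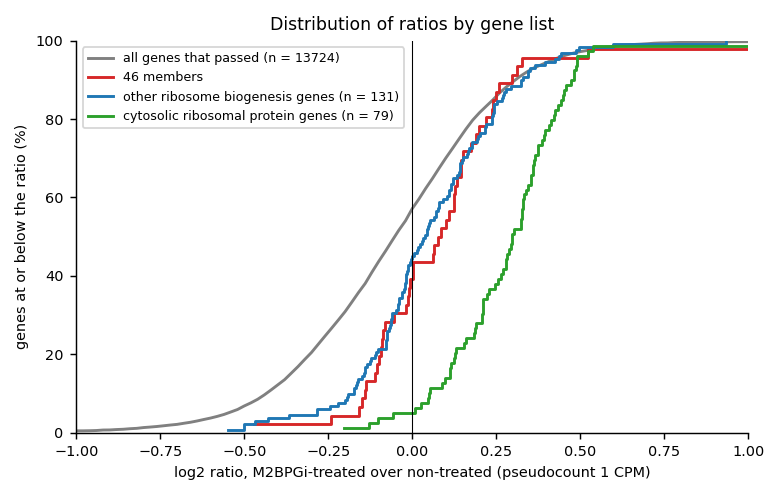
Share of genes at or below each log2 ratio (1 CPM added), for all genes, the 46 genes, 131 other ribosome biogenesis genes and 79 cytosolic ribosomal protein genes. The curve of the 46 genes runs with that of the other biogenesis genes, to the right of all genes at low ratios, and the ribosomal protein genes lie farthest right with a median of 0.30.

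The ratio varied with transcript length and abundance over all genes, so these were set beside the 46 genes. In 4 bins of about equal size, from the shortest to the longest transcripts, the median over all genes went from 0.03 to -0.03, -0.07 and -0.12. The median of the 46 genes in the same bins was 0.19, -0.01, 0.08 and -0.11, from 11, 16, 11 and 8 genes. Rescaling turned the second of these medians positive in both groups, to 0.02 and 0.05. By mean CPM, the median over all genes was -0.11 below 10 CPM, -0.08 from 10 to 30, -0.02 from 30 to 100 and 0.10 above. None of the 46 genes was below 10 CPM, and in the other bins their medians were -0.04, 0.07 and 0.17, from 10, 26 and 10 genes. Rescaling turned -0.04 to 0.01 for the 46 genes and -0.02 to 0.03 for all genes. The part of length and abundance in the difference from all genes was not tested.

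**Figure D4:**
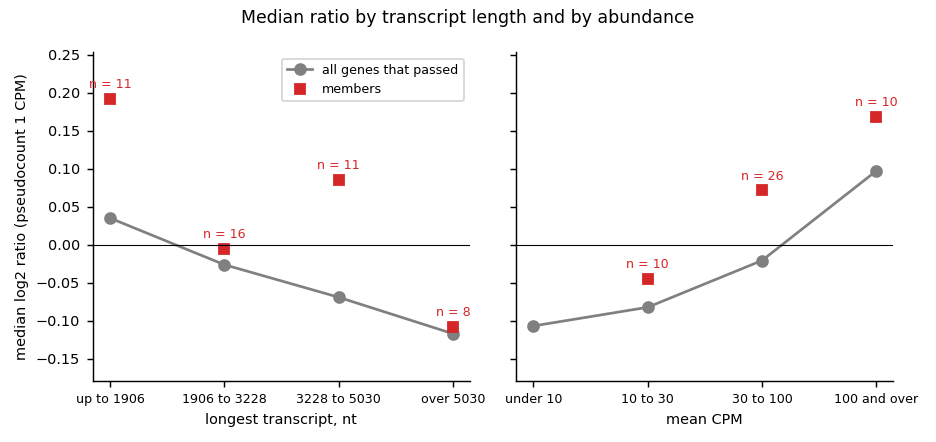
Median log2 ratio (1 CPM added) of all genes (grey) and of the 46 genes (red, with their number) by longest transcript and by mean CPM. In the bins that hold any of the 46 genes their median lies above that of all genes, by little in the second and in the longest bin of length.

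The promoter windows of the 46 genes were searched for 6 motifs, since the E-box CACGTG is the site that MYC and related factors bind. RefSeq windows of 300 bases, 250 before and 50 after the start, were found for 39 of the 46 genes (49 windows), and for 8799 of the genes that passed the filter. The E-box was in 16 of the 39 genes (41.0%) and in 12.7% of the 8799. Most of these sites lay close to the start. In 13 of the 39 genes (33.3%) an E-box lay in the first 50 bases after the start, against 139 of 8799 genes (1.58%), so 9.35% of all genes with an E-box there were among these members. Of the 19 E-box sites of the members, 13 (68.4%) were after the start, against 10.8% of the sites in all 8799 genes, where a site in overlapping windows of a gene counts once. This comparison by position was chosen after its values were seen. A match is a description of the letters and not a bound site.

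The 8 sites nearest to the start among these are printed because they show the E-box that 13 of the 39 genes hold after the start. Each is a run of 30 bases on GRCh38.p14, 5′ to 3′ on the strand of the gene, with the E-box in capitals.
WDR43, chr2:28894658-28894687, plus strand: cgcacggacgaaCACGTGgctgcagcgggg
FBL, chr19:39846356-39846385, minus strand: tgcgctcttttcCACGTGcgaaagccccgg
GNL3, chr3:52686026-52686055, plus strand: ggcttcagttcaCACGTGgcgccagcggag
PNO1, chr2:68157885-68157914, plus strand: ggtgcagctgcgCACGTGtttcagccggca
PES1, chr22:30591880-30591909, minus strand: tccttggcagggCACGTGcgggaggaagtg
MRTO4, chr1:19251807-19251836, plus strand: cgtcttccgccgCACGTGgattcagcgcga
IMP4, chr2:130342900-130342929, plus strand: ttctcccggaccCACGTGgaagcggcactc
NOP14, chr4:2963374-2963403, minus strand: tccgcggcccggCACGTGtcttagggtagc

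Counted from the annotated start, the E-box begins at base 4 in WDR43, at base 7 in FBL and GNL3, at base 10 in PNO1, at base 14 in PES1, at base 15 in MRTO4 and at base 16 in IMP4 and NOP14. The 8 genes did not share a direction. FBL (0.33), MRTO4 (0.24), PNO1 (0.22) and IMP4 (0.11) were higher, while GNL3 (-0.15) was lower and WDR43, PES1 and NOP14 were near 0. Over the 13 genes the median was -0.01, which became 0.04 after rescaling. The 26 genes with a window but no E-box after the start had a median of 0.11, which became 0.16. Over all 8799 genes, the 139 with an E-box after the start had a median of -0.03, which became 0.02 after rescaling, and the others had -0.05, which became 0.00.

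The other motifs were as follows. CCGGAAG (ETS) was in 15 of the 39 genes (38.5%) and in 23.8% of the 8799. GGGCGG (SP/KLF) was in 29 (74.4%) and 78.4%, and TATAAA, a core promoter motif, in 1 (2.56%) and 7.75%. The NRF1 motif was in 3 genes (7.69%) and 2.86%, and the YY1 motif in 2 (5.13%) and 2.53%. Both strands were searched, and overlapping motifs were each counted. Of the member sites of ETS and SP/KLF, 1 of 22 (4.55%) and 6 of 74 (8.11%) lay after a start, against 16.6% and 8.50% of the sites in the 8799 genes, and the 1 ETS site, in RRN3, lies before the other start of this gene. The NRF1 and TATAAA sites, 4 and 1, had 0 there, against 7.63% and 5.47%. Both YY1 sites lay after the start, as did 75.1% of the YY1 sites in the 8799 genes.

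**Figure D5:**
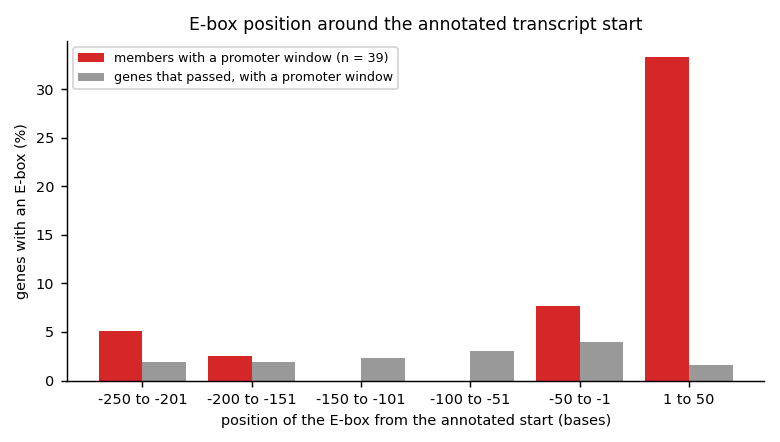
Share of genes with an E-box in each stretch of 50 bases from the annotated start, for the 39 members with a promoter window (red) and the 8799 genes that passed the filter and have a window (grey). In the first 50 bases after the start it is 33.3% of members and 1.58% of genes.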

How the data were processed

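CAGE tags were measured in 1 library of non-treated and 1 library of M2BPGi-treated PLC/PRF/5 cells (Homo sapiens), 6 h. Before mapping, the authors removed ribosomal sequences and sequences with unclear bases. Tag starts were clustered with CAGEr. The submitters' notes name BWA, HISAT2 and hg19, while the paper's methods name a mouse genome, so only RefSeq coordinates on GRCh38.p14 are given. How tags were assigned to genes is not stated. The deposited values are CPM, rounded to 2 decimals. Within this rounding (0.005 CPM), 100% of the values fitted whole tags in each library. A narrower check of the low values (within 0.1 of a tag) found whole tags for 87.6% and 94.1%. As 1 tag is 0.0416 and 0.0402 CPM, this check is tighter than the rounding and must miss some whole tags. It cannot decide whether the tags are whole, and the tags served only for the counting intervals. No count test was run.

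Log2 ratios and intervals were computed with numpy 2.4.6, pandas 2.3.3 and scipy 1.17.1 and tested on simulated data. Where several rows shared a symbol, the one with the higher mean was used. Lists are described by counts and medians beside those of all genes. Near-identical copies were sought with BLAST 2.17.0 in GENCODE v29 (at least 95% identity over at least 100 nt of the first 500 nt). Host snoRNA genes and neighbours come from GENCODE. BOP1 was matched by symbol. The 46 genes were grouped into 6 roles. Named were the members at least 25% higher or 20% lower, the highest, lowest and most abundant of each role, the 5 highest and 5 lowest of all, and the 2 highest and 2 lowest of each other list with at least 10 CPM. Other genes were chosen after their values were seen. The upstream stretches printed were cut to leave out exons and bases past another RefSeq start of the gene, after the windows had been seen. The members and lists were chosen with earlier results of these data known.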

Additional observations from a re-analysis of the deposited data

How the results depend on the processing

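The values were recomputed with other pseudocounts (0.1 and 5 CPM), other filters (none, or a mean of at least 10 CPM), a rescaling of the libraries, other folds (1.5 and 2), and the 46 genes without those that have a near-identical copy. Leaving out RRN3 was added after the data were seen. TMM scaling was planned for the case that whole tags could be read back. It is not used here, and a draft of it was taken out. In a stricter check of the low values (within 0.1 of a tag) 87.6% were whole in the non-treated and 94.1% in the treated library, short of the 95% asked for. This check is tighter than the rounding of the values, so the shortfall does not show whether the tags are whole. The median log2 ratio of the 46 genes was above 0 under each alternative run, from 0.07 (5 CPM) to 0.13 (rescaled), and it was 0.08 without RRN3 and in the 37 genes without a near-identical copy. The other filters cannot move it, since all 46 genes pass them.

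Of all genes, 1240 were higher by at least 25% and 2532 lower by at least 20%. With a fold of 1.5 these were 219 and 555, and with 2 they were 33 and 59. Adding 5 CPM gave 776 and 1476, and with a mean of at least 10 CPM 1477 were lower. At 1.5-fold, 219 were higher and 555 lower. These became 336 and 856 with 0.1 CPM, 91 and 164 with 5 CPM, and 135 and 223 with a mean of at least 10 CPM. Among the 46 genes, 3 were past 25% higher and 1 past 20% lower. Rescaling gave 5 higher, and folds of 1.5 and 2 gave 1 higher and 0 lower each. With all genes that have such a copy left out, 0 were past 20% lower and 0 were 1.5-fold higher. Without RRN3, 0 were 1.5-fold higher. FBL was under 25% with 5 CPM. Fewer or smaller ratios follow from the construction of the folds, the pseudocounts, the filter and the sets left out. Under rescaling, BOP1 and NOB1 passed 25% through its shift of about 0.05, which also follows from its construction. Of the 54 values of 18 named members that a pseudocount or the rescaling can move, 51 moved by less than their counting error. The other 3 were RRN3 with 5 CPM and, after rescaling, NHP2 (0.29) and NPM1 (0.15). Rescaling moves all these genes by about the same amount, so for it this tally depends on the tags of a gene and does not show stability. The 51 include TCOF1, NOP58, BYSL and NOP2, whose intervals included 0 after rescaling. GAR1 changed sign, to 0.04, after rescaling.

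No paired analysis was possible because each group has 1 library. No library can be left out for the same reason. At 71 to 39050 tags per gene, the limit is the lack of replicates and, for genes such as UBTF and RRP12, the counting error.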
